A study of Oryctolagus cuniculus with 6 samples.

Results

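The interferon-stimulated genes are the set of genes that cells switch on when interferons bind their receptors, and 35 of them, named by symbol, were followed in injured rabbit facial nerve. The count files listed 30 of the 35 under their own symbol. HERC6 and PARP14 were found under the identifiers LOC100345779 and LOC100340255, which the RefSeq gene table pairs with these symbols, so 32 of the 17396 listed genes were taken. MX2, IFIT1 and BST2 had no row and were not analysed here, and ISG20 was too low to test, which left 31 genes tested. The nerves came from wild type male Japanese white rabbits of 3 to 4 months, with 3 rabbits in the FNI group (facial nerve injury by transection of the main trunk) and 3 in the FNI+I-125 group, and all were taken on day 14. The FNI+I-125 rabbits had the same transection and carried an I-125 seed of 0.8 mCi, placed 0.3 to 0.5 cm from the nerve, so every rabbit studied here had a cut nerve. By the numbers in the study, each rabbit gave 1 RNA-seq library, with a total of 16031151 to 16798012 counts, and levels are given as CPM (counts per 1000000 counts, after TMM scaling of the library sizes). Some libraries stood apart in tissue content: the 6 skeletal muscle markers with a row (of 9) summed to 4144 and 3939 CPM in FNI+I-125 replicates 1 and 2 and to 17.1 to 73.3 CPM elsewhere, and the 5 salivary gland markers with a row (of 7) reached 58392 CPM in FNI replicate 2. Leaving these markers out of the library sizes did not change the number of genes at the unadjusted p or without overlap between the groups. The comparison asks how implantation of the radioactive seed shifts gene expression in a nerve that is already injured. No group had an inert seed, so radiation and the implanted body cannot be told apart.

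Interferons act through linked routes. Type I interferons signal through JAK1 and TYK2 to a complex that holds STAT2 and IRF9 and turns on antiviral genes such as the MX, OAS and IFIT families. Interferon gamma, made by T cells and NK cells, signals through JAK1 and JAK2 and strongly induces IRF1, the antigen processing genes and the CXCL chemokines. Many members of the set also detect viral RNA, so the set holds both the sensors and the effectors of this response. In peripheral nerve, Schwann cells, fibroblasts, endothelium and infiltrating leukocytes can all carry it.

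The clearest feature of the set was a difference between rabbits of the same group. FNI+I-125 replicate 2 had the highest value of all 6 libraries for 27 of the 31 genes tested, against 16.7% of all 14003 genes tested. Among the FNI rabbits, replicate 3 was the highest for 25 of the 31 genes, against 41.0% of all genes. A small group of genes was instead higher in every FNI+I-125 rabbit than in every FNI rabbit. These were IRF1, STAT2, IFIH1, PARP9 and PARP14, which is 5 of 31 genes, or 16.1%, against 14.8% of all genes, so their share was near the background. In bulk tissue, fewer cells of a type and less RNA per cell cannot be told apart. No gene of the set lay lower in every FNI+I-125 library, against 12.3% of all genes.

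**Figure D1:**
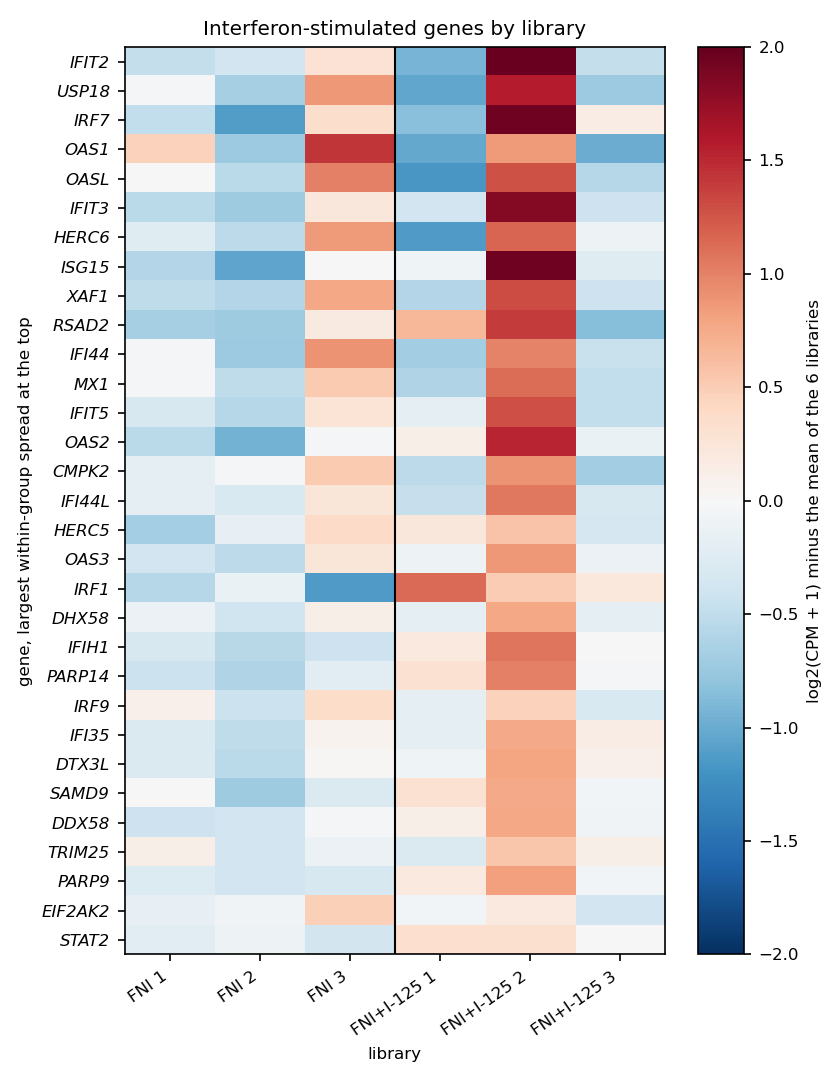
Each row is 1 of the 31 interferon-stimulated genes tested and each column 1 library, and colour gives log2(CPM + 1) minus the gene's mean over the 6 libraries. Genes are ordered by their within-group spread, and 27 of the 31 rows have their highest value in FNI+I-125 replicate 2.

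In edgeR's quasi-likelihood test, adjusted over all genes by the Benjamini-Hochberg method, 0 of the 31 genes passed an adjusted p of 0.05. Over all genes, 0 of 14003 (0.00%) passed this threshold with a log2 fold change of at least 1.5 in either direction. At an unadjusted p under 0.05, 6 of the 31 genes lay higher with the seed, which is 19.4%, against 9.23% of all genes. None of the 31 was lower at that threshold, against 7.73% of all genes. The 6 genes were IRF1, STAT2, PARP14, IFIH1, PARP9 and SAMD9, and limma-voom named these 6 at its own unadjusted p and 0 at an adjusted p of 0.05. DESeq2, adjusted by the Benjamini-Hochberg method, called 1 gene of the set higher, IRF1 (3.2%), against 3.83% of the genes for which it gave an adjusted p. The median log2 fold change of the 31 genes was 0.49, against 0.01 over all genes tested. It was positive for 25 of the 31, against 51.1% of all genes.

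The transcription factors of the set differed from each other in pattern. IRF1, the factor that interferon gamma and inflammatory cytokines induce, in the FNI rabbits had 43.4, 58.6 and 28.8 CPM, given here and further on in the order of replicates 1, 2 and 3. The irradiated rabbits had 144, 92.0 and 75.3 CPM. Every irradiated nerve lay above every nerve with transection alone. Unlike most of the set, IRF1 was highest in FNI+I-125 replicate 1 and lowest in FNI replicate 3. The means were 43.6 ± 14.9 CPM and 104 ± 35.9 CPM (SD, n = 3 each), and the exact permutation test gave p = 0.1, the smallest that 3 against 3 can give, as it did for STAT2, IFIH1, PARP9 and PARP14. The log2 fold change was 1.25 ± 0.35 (SE, edgeR adjusted p = 0.280), and DESeq2 gave 1.24 with an adjusted p of 0.0274.

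STAT2, the partner of IRF9 in the type I interferon complex, had the smallest spread of the set. It stood at 50.0, 54.2 and 45.0 CPM in the FNI libraries and at 74.1, 73.0 and 58.9 CPM in the FNI+I-125 libraries. The groups did not overlap, though the lowest irradiated nerve lay only a little above the highest of the others. Its log2 fold change was 0.46 ± 0.14 (SE, edgeR adjusted p = 0.280). IRF9, which gives that complex its DNA binding, stood at 81.7, 56.7 and 98.7 CPM against 66.9, 105 and 61.7 CPM. The groups of IRF9 overlapped throughout, with a log2 fold change of -0.02 ± 0.29 (SE, edgeR adjusted p = 0.974). IRF7, the factor that amplifies interferon alpha genes, stood at 27.2, 17.3 and 50.1 CPM against 21.2, 152 and 42.9 CPM. Here a single irradiated nerve stood far above the rest while another lay among the lowest, and the fitted log2 fold change was 1.19 ± 0.79 (SE, edgeR adjusted p = 0.432). Without FNI+I-125 replicate 2 it was -0.01.

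All 3 RNA sensors had a positive fold change, and 1 kept the groups apart. IFIH1, which encodes MDA5 and detects long double-stranded RNA, stood at 18.1, 15.2 and 16.9 CPM in the FNI libraries and at 26.2, 49.1 and 23.0 CPM in the FNI+I-125 libraries. The FNI rabbits lay close together and all irradiated rabbits lay above them, with replicate 2 at 2.00-fold of the mean of the other irradiated nerves. The log2 fold change was 0.97 ± 0.31 (SE, edgeR adjusted p = 0.280), and 0.53 without FNI+I-125 replicate 2. DDX58, which encodes RIG-I, had a log2 fold change of 0.59 ± 0.26 (SE, edgeR adjusted p = 0.309). DHX58, which encodes the regulator LGP2, had 0.35 ± 0.32 (SE, edgeR adjusted p = 0.564). The groups overlapped for both of these sensors, and without FNI+I-125 replicate 2 their log2 fold changes were 0.26 and -0.09.

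PARP9, DTX3L and PARP14 make up a further module. PARP9 and DTX3L act together as an ADP-ribosylating ubiquitin ligase, and PARP14 is a related mono-ADP-ribosyltransferase. PARP9 stood at 18.0, 16.6 and 17.5 CPM against 25.4, 39.7 and 21.2 CPM, with a log2 fold change of 0.73 ± 0.25 (SE, edgeR adjusted p = 0.280). PARP14 stood at 30.3, 26.8 and 35.2 CPM against 51.3, 84.7 and 40.0 CPM, with a log2 fold change of 0.93 ± 0.30 (SE, edgeR adjusted p = 0.280). Both kept their groups apart, and in both FNI+I-125 replicate 2 was again the highest library. DTX3L, at a log2 fold change of 0.60 ± 0.29 (SE, edgeR adjusted p = 0.332), overlapped between the groups. Without FNI+I-125 replicate 2 the log2 fold changes were 0.40 for PARP9, 0.25 for DTX3L and 0.54 for PARP14. SAMD9, an antiviral factor that acts on translation and the sixth gene at the unadjusted p, stood at 45.4, 27.4 and 37.1 CPM against 56.5, 77.5 and 44.1 CPM. Its groups overlapped by a narrow margin: replicate 3 of the irradiated rabbits lay just under replicate 1 of the FNI rabbits. Its log2 fold change was 0.70 ± 0.28 (SE, edgeR adjusted p = 0.287), and 0.43 without FNI+I-125 replicate 2.

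**Figure D2:**
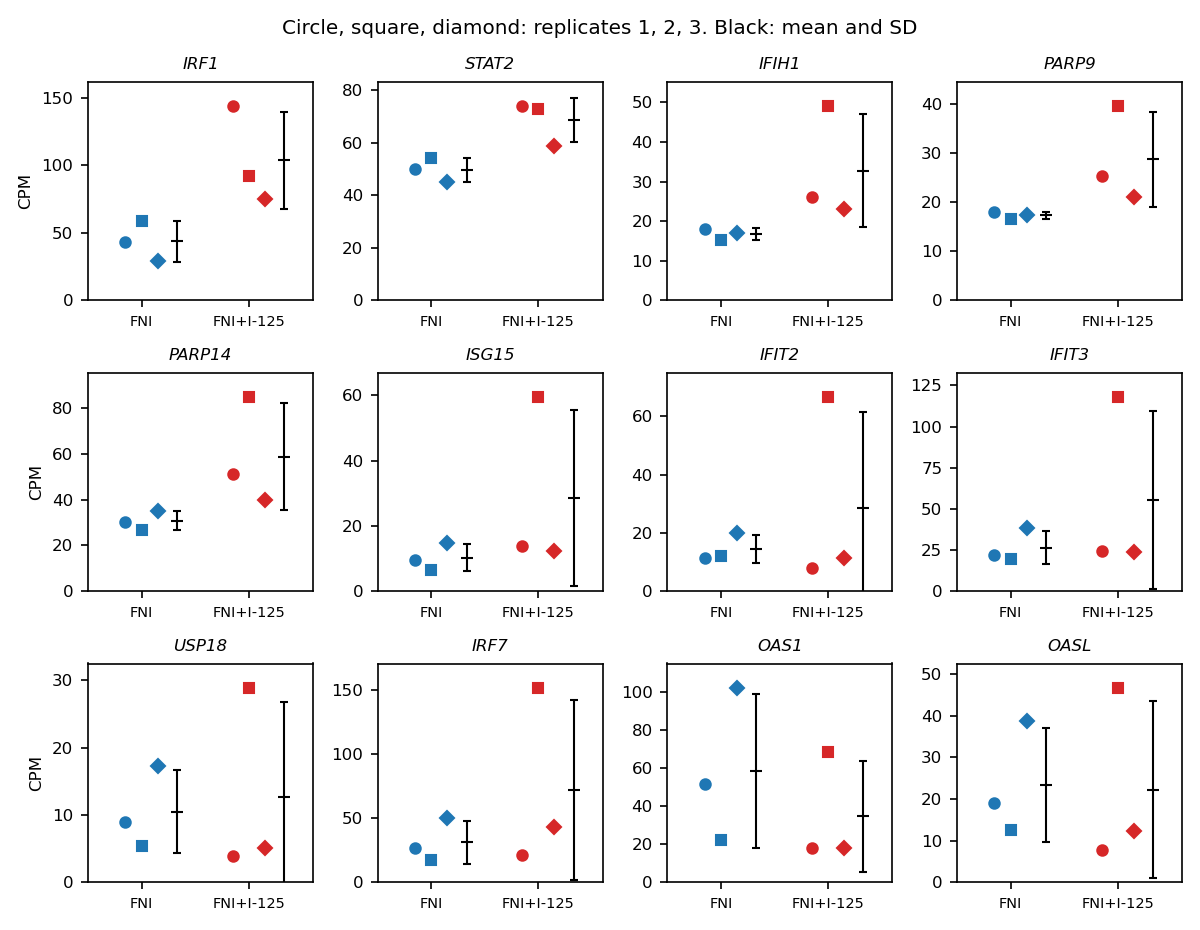
CPM (vertical axes, from 0) of 12 interferon-stimulated genes in the 3 FNI and the 3 FNI+I-125 rabbits, with circles, squares and diamonds for replicates 1, 2 and 3 and the mean and SD in black (bars that would reach under 0 are cut at the axis). IRF1, STAT2, IFIH1, PARP9 and PARP14 keep the groups apart, whereas in ISG15, IFIT2, IFIT3, USP18, IRF7 and OASL the square of FNI+I-125 replicate 2 stands above all other libraries.

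Spread between libraries was measured as the SD of log2(CPM + 1) within the groups, pooled over both. IFIT2, an interferon-induced protein with tetratricopeptide repeats that restrains viral translation, had the largest, at 1.15. It stood at 11.4, 12.1 and 20 CPM in the FNI libraries and at 7.97, 66.6 and 11.3 CPM in the FNI+I-125 libraries. FNI+I-125 replicate 2 held 6.93 times the mean of the other irradiated nerves, and those lay below every FNI library, though replicate 3 only narrowly. IFIT3, its binding partner, stood at 22.0, 19.6 and 38.2 CPM against 24.7, 118 and 24.1 CPM, with the same library on top. For IFIT2 the log2 fold change was 0.98 ± 0.84 (SE, edgeR adjusted p = 0.534) with all libraries and -0.62 without FNI+I-125 replicate 2. For IFIT3 these values were 1.07 ± 0.70 (SE, edgeR adjusted p = 0.433) and -0.15. IFIT5, of the same family, had 0.60 and -0.20.

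In the ISG15 system, FNI+I-125 replicate 2 had the highest value for all 5 genes, and all but TRIM25 had their highest FNI value in replicate 3. ISG15, a ubiquitin-like protein that is attached to other proteins during the interferon response, stood at 9.49, 6.61 and 14.9 CPM against 13.9, 59.5 and 12.3 CPM. Its log2 fold change, 1.47 ± 0.70 (SE, edgeR adjusted p = 0.325), was the largest of the set with all libraries but 0.32 without FNI+I-125 replicate 2, and FNI replicate 3 lay above both FNI+I-125 replicates 1 and 3. USP18, which removes ISG15 and dampens the type I interferon receptor, stood at 8.90, 5.35 and 17.3 CPM against 3.92, 28.9 and 5.11 CPM. Outside replicate 2, the irradiated nerves held less USP18 than any FNI nerve, though replicate 3 only narrowly. The log2 fold change moved from 0.26 ± 0.87 (SE, edgeR adjusted p = 0.887) to -1.25 without FNI+I-125 replicate 2. As a difference of the group means of log2(CPM + 1), USP18 was -0.12 and HERC6 -0.06, so the sign of both depends on the scale (HERC6 had 0.12 in edgeR). HERC5 and HERC6 are ligases of the HERC family, of which HERC5 attaches ISG15, and TRIM25 is a ligase that acts on RIG-I. Their within-group SDs were 0.50, 0.96 and 0.34.

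Among the oligoadenylate synthetases, which make the messenger that activates RNase L, OAS1 went its own way. It stood at 51.5, 22.2 and 102 CPM in the FNI libraries and at 17.8, 68.2 and 18.1 CPM in the FNI+I-125 libraries. Its highest library was FNI replicate 3, and the irradiated replicates 1 and 3 were the lowest of the 6. The log2 fold change was -0.76 ± 0.75 (SE, edgeR adjusted p = 0.592), the lowest of the set, and -1.73 without FNI+I-125 replicate 2. OASL, a related protein, stood at 19.0, 12.6 and 38.8 CPM against 7.84, 46.7 and 12.3 CPM, with both high libraries close to each other. OAS2 had a log2 fold change of 1.18 ± 0.51 (SE, edgeR adjusted p = 0.306) and OAS3 of 0.49 ± 0.36 (SE, edgeR adjusted p = 0.474), and these were 0.44 and 0.05 without FNI+I-125 replicate 2. The groups of all these genes overlapped. The genes of this family are similar in sequence, and how reads that match several genes were counted is not given in the sources used here. A further row, LOC100356242, is also named OASL in the RefSeq table, so reads of OASL may be divided between these rows.

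For the remaining effectors the values are given in short. MX1, the GTPase that traps viral nucleocapsids, stood at 197, 143 and 293 CPM against 133, 442 and 145 CPM, so FNI+I-125 replicates 1 and 3 lay on either side of the lowest FNI library. Its log2 fold change was 0.19 ± 0.54 (SE, edgeR adjusted p = 0.870), and -0.63 without FNI+I-125 replicate 2. RSAD2, or viperin, had a log2 fold change of 1.08 ± 0.62 (SE, edgeR adjusted p = 0.380) and its FNI+I-125 replicates 1 and 2, at 20.8 and 35.2 CPM, lay above all FNI libraries (at most 14.6 CPM), while replicate 3 lay below them at 6.63 CPM. Without FNI+I-125 replicate 2 its log2 fold change was 0.45. CMPK2, a mitochondrial nucleotide kinase, had a log2 fold change of -0.07. IFI44, IFI44L, IFI35 and XAF1, a binder of the apoptosis inhibitor XIAP, ran from -0.04 for IFI44 to 0.56 for IFI35. EIF2AK2, the kinase PKR that halts translation, had a within-group SD of 0.32 and a log2 fold change of -0.19. ISG20, an RNA exonuclease, had counts of 5, 2 and 0 in the rabbits with transection alone and of 0, 1 and 19 in the irradiated ones. A count of 0 allows up to 3 counts, for counting error only, so in 4 of the 6 libraries ISG20 was within this limit.

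To see which genes and libraries hold the spread, the squared deviations of log2(CPM + 1) were summed over the 31 genes, about the group means (within) and between the group means. The within-group part took 80.4% of the total, against 64.7% over all genes tested. Of that part, 55.4% lay in 8 genes, namely IFIT2, USP18, IRF7, OAS1, OASL, IFIT3, HERC6 and ISG15. STAT2, PARP9, TRIM25, DDX58 and EIF2AK2 held 0.2% to 0.8% each. The between-group part was divided otherwise, with 14.5% of it in IRF1 and 11.2% in ISG15. For 20 of the 31 genes (64.5%) the within-group SD was larger than the difference between the group means, against 46.8% of all genes. The median within-group SD was 0.63 in the set and 0.27 over all genes.

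**Figure D3:**
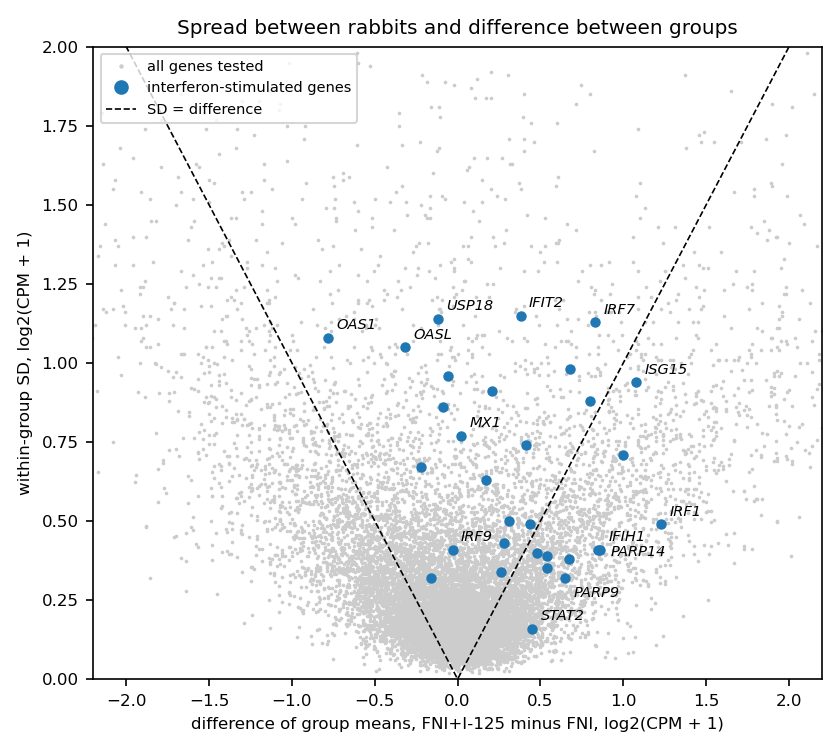
Horizontal axis, difference of the group means of log2(CPM + 1), FNI+I-125 minus FNI. Vertical axis, pooled within-group SD on the same scale, for the 31 interferon-stimulated genes (blue) and all genes tested (grey, those beyond the axes not drawn). The 20 genes above the dashed lines, such as IFIT2, USP18, MX1 and OASL, spread more between rabbits of a group than the groups differ, and STAT2 and IRF1 lie below them.

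The FNI+I-125 replicate 2 library alone held 46.1% of the within-group squared deviations of the set, against 13.0% over all genes. In the FNI+I-125 group it stood above the mean of the other 2 libraries for every gene tested except IRF1, from 0.839-fold for IRF1 to 6.93-fold for IFIT2, with a median of 2.57-fold. For 16 of the 31 genes tested it held more than 2 times their mean, as it did for 5.0% of all genes. FNI replicate 3 stood at 0.565-fold of the mean of the other FNI libraries for IRF1 and at up to 2.77-fold for OAS1, with a median of 1.64-fold. The genes that were high in the former library were mostly those that were high in the latter. Across the 31 genes, the deviations of the libraries from their group means had a Pearson r of 0.78 and a Spearman rho of 0.78, and across all 14003 genes these were 0.30 and 0.17. These are descriptions across genes, which are not independent replicates. As a mean of log2(CPM + 1) over the 31 genes, the FNI libraries stood at 4.53, 4.28 and 5.03 and the FNI+I-125 libraries at 4.57, 5.84 and 4.53. FNI+I-125 replicates 1 and 3 thus lay between the lowest and the highest FNI library.

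With FNI+I-125 replicate 2 left out, 15 of the 31 genes had a positive log2 fold change and the median was -0.01, the same as over all genes. IRF1, STAT2, IFIH1, PARP9 and PARP14 were then still the genes without overlap in the upward direction, and MX1, OAS1, OASL, IFIT2, USP18, CMPK2 and IFI44L lay lower without overlap. These are 5 and 7 of the 31 genes, against 18.7% and 19.3% of all genes with 2 libraries against 3. CPM were scaled anew for each fit with libraries left out. On the scale used above, MX1 overlapped, at 145 CPM in FNI+I-125 replicate 3 and 143 CPM in FNI replicate 2. Other margins were narrow too. FNI+I-125 replicate 3 stood at 11.3 CPM for IFIT2, against 11.4 CPM in FNI replicate 1. Against FNI replicate 2 it stood at 22.4 and 22.6 CPM for IFI44L, 12.3 and 12.6 CPM for OASL, and 5.11 and 5.35 CPM for USP18. OAS1 and CMPK2 had wider margins. With FNI+I-125 replicate 2 left out, 3 genes had an unadjusted p under 0.05 in the upward direction, namely IRF1, IFIH1 and PARP14, against 6.02% of all genes. CMPK2 had it in the downward direction, against 6.03%. Leaving out FNI replicate 3 instead gave 30 positive genes and a median of 0.72, against 0.01 over all genes. In that fit 12 genes were higher without overlap (16.5% of all genes). There 2 genes, IRF1 and PARP14, had an unadjusted p under 0.05 in the upward direction (6.27% of all genes). With both left out, 12 genes were higher and 7 were lower without overlap, against 23.2% and 24.7% of all genes with 2 libraries against 2, and the median was 0.20. Without FNI+I-125 replicate 1, 8 genes were higher without overlap (18.7% of all genes), and without replicate 3 there were 9 (20.8%), with 10 at the unadjusted p (8.20%). Without FNI replicate 2, 2 genes, STAT2 and IRF1, were at the unadjusted p, against 7.99% of all genes. Without FNI+I-125 replicate 2, 13 of the 31 genes had an SD above the difference, against 44.8% of all genes, so the share of the set was then no longer above that of all genes.

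**Figure D4:**
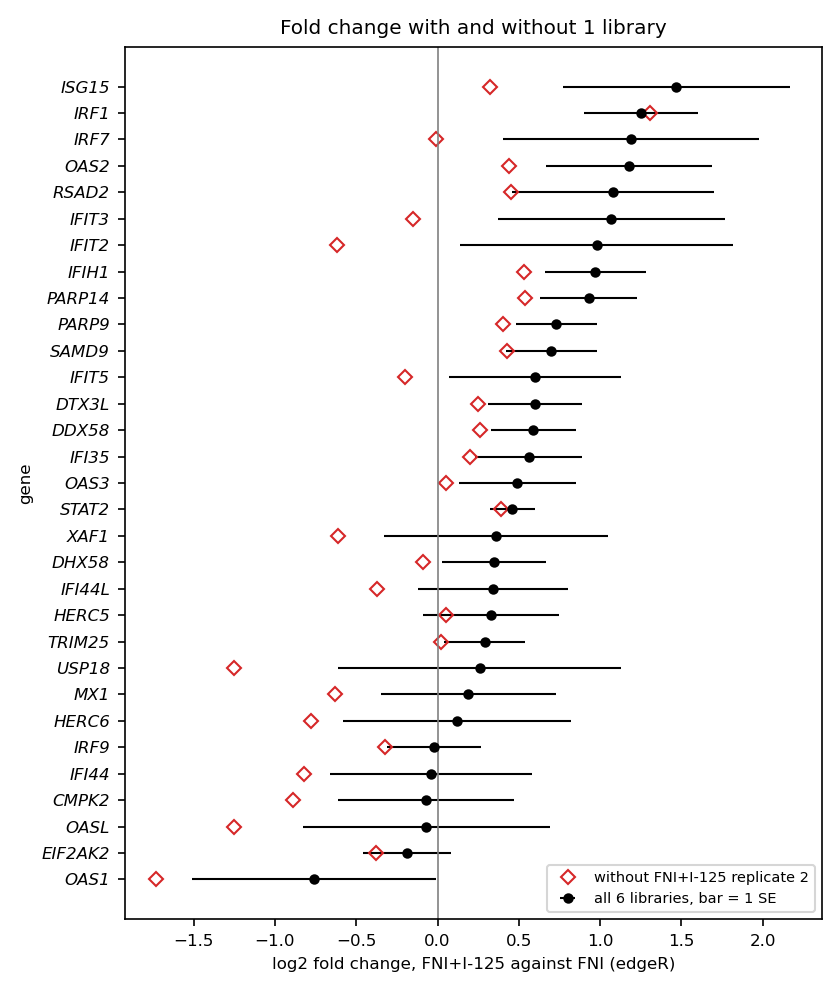
Horizontal axis, log2 fold change of FNI+I-125 against FNI from edgeR for each of the 31 genes, with all 6 libraries (black, bars are 1 standard error) and without FNI+I-125 replicate 2 (red diamonds). Without that library the median of the 31 genes is -0.01, and IRF1 and STAT2 move least among the genes above 0.

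Beyond the set, 62 further genes of the pathway were listed by role, of which 45 had a row and 43 were tested. At an unadjusted p under 0.05, 19 of the 43 were higher and 0 were lower, and 26 were higher without overlap (for all genes 9.23%, 7.73% and 14.8%, as above). However, 0 passed edgeR's or limma-voom's adjusted p. DESeq2's adjusted p was passed by 8 in the upward direction, against 3.83% of the genes for which it gave one. The targets of interferon gamma held 10 of the 19. Of the 13 tested, those 10 were higher at the unadjusted p and 11 without overlap, with a median log2 fold change of 1.32. TAP1, a subunit of the peptide transporter of antigen presentation, stood at 26.9, 41.4 and 20.2 CPM against 100, 89.2 and 65.2 CPM, the smallest p of that list. Its log2 fold change was 1.52 ± 0.31 (SE, edgeR adjusted p = 0.280) and hardly moved, to 1.46, without FNI+I-125 replicate 2. CXCL10, a chemokine of both interferon types named after its value was seen, stood at 6.27, 18.6 and 1.54 CPM against 19.3, 74.7 and 12 CPM, so its groups overlapped and its highest library was again FNI+I-125 replicate 2.

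The ligands were nearly out of reach. IFNG, the gene of interferon gamma, had no read in any FNI library, and its counts were 6, 15 and 2 with the seed, too few for the test. IFNE had at most 2 counts in a library, and the 7 other interferon genes listed had no row. Of the 6 receptor chains, 2 were higher at the unadjusted p, IFNGR1 and IL10RB. Over all genes this share was 9.23%, which also stands beside the counts of the next lists. IL10RB is a chain shared with the interleukin 10 receptor (log2 fold change 1.12 ± 0.23, edgeR adjusted p = 0.280). Among the signal transducers, the kinase JAK2 was higher at that p (log2 fold change 0.63 ± 0.23, edgeR adjusted p = 0.282). Of 13 genes tested that sense nucleic acids or pass that signal on, 4 were higher, with the smallest p for the exonuclease TREX1 (log2 fold change 0.61 ± 0.16, edgeR adjusted p = 0.280). Of 6 negative regulators, 1 was higher, the phosphatase PTPN6 of blood cells (log2 fold change 1.69 ± 0.62, edgeR adjusted p = 0.281).

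Markers of other cells moved with these groups and libraries. All 8 macrophage markers with a row (of 10) had a positive log2 fold change, and their summed level was 209 to 882 CPM in the FNI group and 1224 to 1741 CPM in the FNI+I-125 group, beside the genes without overlap. Singly, 5 of the 8 were higher without overlap (14.8% of all genes), and CD163, MRC1 and LYZ overlapped. LYZ stood at 89.0, 87.3 and 9.46 CPM in the FNI libraries and at 0.588, 224 and 689 CPM in the FNI+I-125 libraries. None of these 8 markers was at 0 in every library. The 7 T cell markers summed to 56.4 CPM in FNI+I-125 replicate 2 and to 2.54 to 23.6 CPM in the other libraries, and 6 of the 7 were highest there, beside the effectors that peaked in that nerve. In FNI replicate 3, the other high library, T cell and macrophage markers were instead the lowest of the 6, at 2.54 and 209 CPM. Of the Schwann cell markers, S100B stood at 161, 148 and 1137 CPM in the FNI rabbits and at 32.2, 125 and 91.9 CPM in the irradiated ones. SOX10, the factor that defines the lineage, stood at 275, 276 and 229 CPM and at 54.4, 133 and 222 CPM, so the labelled tissue was detected in every library, and FNI replicate 3 was the highest for S100B but not for SOX10. The 7 neutrophil markers with a row (of 8) summed to 1580 CPM in FNI+I-125 replicate 1, where IRF1 peaked, and to 9.93 to 138 CPM elsewhere. The part of these cells in the values of the interferon-stimulated genes was not tested.

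**Figure D5:**
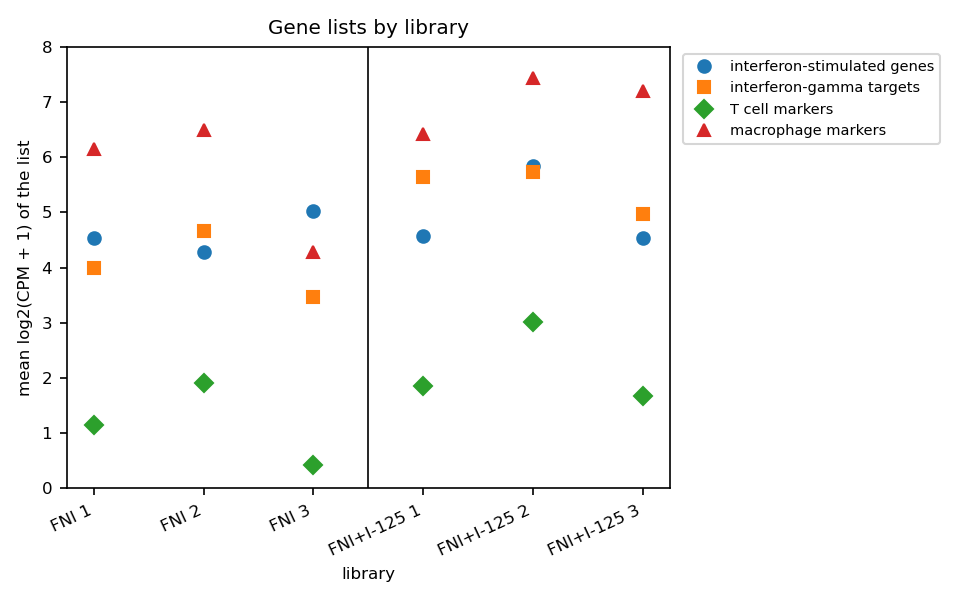
Vertical axis, mean log2(CPM + 1) of the genes tested in each list, for the 6 libraries on the horizontal axis. The interferon-stimulated genes are highest in FNI+I-125 replicate 2 (5.84) and FNI replicate 3 (5.03), whereas the interferon-gamma targets are lowest in FNI replicate 3 (3.46) and at least 4.98 in all FNI+I-125 libraries.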

How the data were processed

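The authors extracted total RNA (by mirVana per the labels, by TRIzol per the methods), selected mRNA with oligo dT, sequenced paired-end reads on HiSeq instruments that the labels do not tie to single libraries and deposited 1 table of raw counts per library, without normalization or pooling. The submitters' processing notes name HISAT2 and OryCun2.0, while the counting program and versions are not given in the sources used here. Rows with a LOC identifier (2992) were matched by gene ID to the RefSeq table of assembly mOryCun1.1, which names 583 of them, and no coordinates were used. A further 25 rows carry a date in place of a name and were kept in the tests.

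The deposited counts were tested with edgeR 4.0.16 under R 4.3.3 (TMM, filterByExpr with a minimum count of 10, glmQLFit and glmQLFTest with default settings, 14003 genes), with two-sided p-values adjusted over all genes by the Benjamini-Hochberg method. The criteria were an adjusted p of 0.05 and a log2 fold change of 1.5. The standard error is the log2 fold change divided by the root of the test's F. The biological coefficient of variation was 43.0% and the TMM factors ran from 0.923 to 1.06. Levels are CPM or log2(CPM + 1). Single values were compared by an exact permutation test over the 20 assignments of 6 libraries. Alternatives used DESeq2 1.42.0, limma 3.58.1 (voom), other normalizations and filters, a replicate block and each library left out, and leaving out both high libraries was chosen after seeing the data. The scripts were tested on simulated data. No sequencing batch is named for any library.

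The genes and lists were chosen with earlier results of these data known, and no test or p is given for a list. Values in every library are given for genes without overlap between the groups, the 6 with the largest within-group SD, STAT2, IRF1, IRF7 and IRF9, and, chosen after values were seen, ISG15, MX1 and SAMD9. Pathway genes are named by the smallest p in each list. A search of promoter motifs had been planned and was not run, since no sequences were used here. Some genes of the lists are not reported here. The study gives 3 rabbits a group, and nothing else ties a library to a rabbit, so p-values measure the spread between these libraries.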

Additional observations from a re-analysis of the deposited data

How the results depend on the processing

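The number of genes called over all genes was 0 in each direction by edgeR, limma-voom and every other normalization and filter, but DESeq2 gave 236 higher and 163 lower, and the unadjusted p (under 0.05, fold criterion kept) gave 388 and 306. With 1 library left out it ran from 0 to 38 higher and from 0 to 2 lower, the upper value of both without FNI+I-125 replicate 3. Of the interferon-stimulated genes, 2 to 10 were then higher and 0 to 1 lower at the unadjusted p, 5 to 12 were higher and 0 to 7 lower without overlap, 13 to 21 had a within-group SD above the difference, and the median log2 fold change ran from -0.01 to 0.72. With both high libraries left out, 12 were higher and 7 lower without overlap, against 23.2% and 24.7% of all genes. In that setting 11 of the 31 had an SD above the difference, against 43.4% of all genes.

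The replicate block left 2 genes higher at the unadjusted p, STAT2 and IRF1, against 9.03% of all genes. Over all genes, the deviations of same-numbered libraries had r of 0.0519, -0.191 and -0.137 for replicates 1, 2 and 3. Pairs with different numbers ran from -0.293 to 0.305. Deviations about means of 3 libraries are tied to each other, so these r cannot decide whether equal numbers stand for a pairing. Under the block the log2 fold change was -0.02 for MX1, -0.31 for USP18 and -0.13 for HERC6, each with the sign turned. With limma-voom it turned to -0.17 for USP18 and -0.06 for HERC6, and with both high libraries left out to -0.32 for MX1, -0.31 for IFIT2, -0.69 for USP18, -0.20 for HERC6 and -0.18 for IFI44L. The cause was not tested. When single libraries were left out, the sign turned at least once for CMPK2 (-0.89 to 0.23), DHX58 (-0.09 to 0.51), EIF2AK2 (-0.38 to 0.04), HERC6 (-0.78 to 0.69), IFI44 (-0.82 to 0.51), IFI44L (-0.37 to 0.61), IFIT2 (-0.62 to 1.43), IFIT3 (-0.15 to 1.43), IFIT5 (-0.20 to 0.92), IRF7 (-0.01 to 1.69), IRF9 (-0.32 to 0.15), MX1 (-0.63 to 0.49), OASL (-1.25 to 0.49), USP18 (-1.25 to 0.82) and XAF1 (-0.61 to 1.00). It ran from 0.94 to 1.52 for IRF1 and from 0.38 to 0.56 for STAT2. With 3 rabbits a group, the exact permutation test cannot go below 0.1, and ISG20 and IFNG were too low to compare at this depth.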

Other observations

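The row LOC100356242, which RefSeq also names OASL, had counts of 79, 65 and 122 in the FNI rabbits (replicates 1, 2 and 3) and of 38, 421 and 156 in the irradiated ones. Like the row named OASL, it was highest in FNI+I-125 replicate 2 and lowest in FNI+I-125 replicate 1, but here FNI+I-125 replicate 3 lay above all FNI libraries. Genes of cytotoxic lymphocytes were also high in FNI+I-125 replicate 2, chosen after their values were seen. CD8A stood at 13.1 CPM there and at 0.355 to 2.77 CPM in the other libraries, and PRF1, the gene of perforin, at 4.93 CPM against at most 1.5 CPM. FLT3, a receptor of dendritic cells, stood at 35.7 CPM in that library and at 2.66 to 13.6 CPM in the others. Of the 5 dendritic cell markers tested, only FLT3 peaked there. XCR1, CCR7 and IL3RA reached their top values, 5.69, 13.2 and 32.9 CPM, in replicate 1 of the irradiated rabbits. In replicate 2 of that group they stood at 1.22, 7.55 and 3.47 CPM. TCF4 peaked in FNI replicate 2, at 144 CPM.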
